A study of Homo sapiens with 16 samples.

Results

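The genes near the strongest H3K4me3 peaks that appeared with octanoic acid (OA) in the breast epithelial line MCF-10A, which is immortal but not transformed, form a list of 10: TPPP, ZDHHC11B, ZDHHC11, RIMKLB, MTMR11, ZFPM1, PLPP2, MED12L, PTPDC1 and STK32A. They were chosen by measured values of these same libraries, namely strong H3K4me3 peaks in every OA library and none in any vehicle library, so their H3K4me3 calls are given as a description, with no test. All merged regions within 5 kb of any of their start sites in GENCODE release 44 (build hg38) were examined. They are 10 of 20033 protein-coding genes, and 22 merged H3K4me3 regions lie near them, of which 16 were called in at least 2 libraries and 6 in a single one. Triplicate cultures received either OA at 5 mM or PBS alone, the vehicle, and were collected after 24 hours. Chromatin was profiled by CUT&RUN, in which a nuclease tethered to an antibody releases the DNA around the bound histone mark. Each condition has 3 libraries for H3K4me3 and 3 for H3K27me3. A further 2 H3K4me3 and 2 IgG libraries came from untreated cells of the same line. The peak lists were called separately in each library and carry no read counts, so a library is compared by where it had a call.

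H3K4me3 is laid down at transcription start sites by the COMPASS family of methyltransferases (SETD1 and KMT2 enzymes) and marks promoters that are active or poised. It is densest where CpG dinucleotides are frequent, because CpG-binding subunits help to bring these enzymes to DNA. H3K27me3 is written by Polycomb repressive complex 2 and covers silenced genes, and both marks can lie on the same CpG-rich promoter. Many genes have several promoters, each with its own first exon, which can be used in different cells.

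Of the 10 genes, 9 had a region called in all 3 OA and no vehicle library, termed OA-only below. Of 18734 merged H3K4me3 regions in at least 2 libraries, 345 (1.84%) had this pattern, and 287 (1.43%) of the protein-coding genes had such a region within 5 kb. The gene outside the pattern was ZDHHC11, for which the label does not hold: its one H3K4me3 region, chr5:846820-847120 in an intron 3866 bp inside the gene, was called in OA replicate 1 alone, with 7 reads at the summit and at percentile 0.723 of that library. None of the 10 genes had a region called in all 3 vehicle and no OA library (0.0801% of regions and 0.025% of protein-coding genes).

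One vehicle library stood apart. In vehicle replicate 3, 1535 regions lacked a call that was present in the other 5 libraries, against 27 and 80 for vehicle replicates 1 and 2 and 221, 33 and 28 for OA replicates 1, 2 and 3. Within 1 kb of the start sites of 8 breast epithelial markers (KRT5, KRT14, KRT17, TP63, CDH1, EPCAM, LAMB3 and ITGA6), vehicle replicates 1 and 2 had a call at 8 and 8, vehicle replicate 3 at 3, and the OA libraries at 6, 7 and 6. CDH1, which encodes E-cadherin, EPCAM and LAMB3 were called in every vehicle and OA library except vehicle replicate 3. That library had calls at PTPRC and RBFOX3, a leukocyte and a neuronal marker, which were called in no other library within 1 kb. Of the 7 markers of other cell types, CD3E, PECAM1, CDH5 and ALB had no call within 1 kb in any library, and SNAP25 had one in OA replicate 3. Vehicle replicate 3 was also the shallowest by its uniform background (0.45 reads, against 0.822 and 0.775 in the other vehicle libraries and 0.853, 0.633 and 0.722 in the OA libraries).

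**Figure D1:**
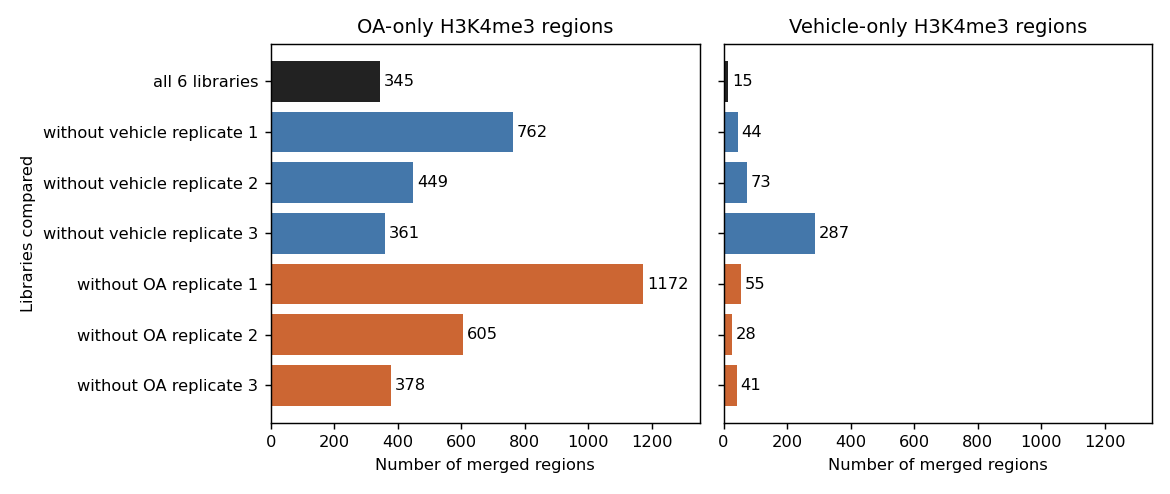
Numbers of merged H3K4me3 regions with the OA-only pattern (left) and the vehicle-only pattern (right) when all 6 libraries were compared and when each library was left out; the horizontal axis is the number of regions. With vehicle replicate 3 set aside, 287 regions were vehicle-only, against 15, and 361 were OA-only, against 345.

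Without vehicle replicate 3 the series therefore held 361 OA-only and 287 vehicle-only regions, in place of 345 and 15. The OA-only count moved further with other libraries set aside: it was 1172 without OA replicate 1, 762 without vehicle replicate 1 and 605 without OA replicate 2, with 787, 606 and 458 protein-coding genes. The shares of 1.84% and 1.43% therefore hold for all 6 libraries together and depend on which were compared. At the 9 OA-only regions vehicle replicates 1 and 2 had no call either, as the choice of the genes required, and leaving out a library loosens that rule, so it is no check on these regions. Whether the other features of that library bear on the background shares was not tested.

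The sequences before the start sites fall into a few kinds, shown here with every CpG in capitals (plain text otherwise, 5′ to 3′ in the direction of the gene). The first pair fills the gap between the start and the noncoding gene on the other strand at TPPP (chr5:693353-693492, minus strand) and ZDHHC11B (chr5:784730-784824, minus strand), from RefSeq's promoter table on GRCh38.p14, and is shown because the strongest OA-only regions of all are near-identical copies of each other.
TPPP: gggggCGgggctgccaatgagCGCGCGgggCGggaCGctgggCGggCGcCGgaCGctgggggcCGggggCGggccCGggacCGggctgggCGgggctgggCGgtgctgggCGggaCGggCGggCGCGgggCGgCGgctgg
ZDHHC11B: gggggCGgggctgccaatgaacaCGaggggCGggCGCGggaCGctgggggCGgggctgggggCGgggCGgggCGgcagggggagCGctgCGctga

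ZDHHC11 is shown for contrast, as the related gene without the pattern (chr5:850987-851236, minus strand, from the same table).
ZDHHC11: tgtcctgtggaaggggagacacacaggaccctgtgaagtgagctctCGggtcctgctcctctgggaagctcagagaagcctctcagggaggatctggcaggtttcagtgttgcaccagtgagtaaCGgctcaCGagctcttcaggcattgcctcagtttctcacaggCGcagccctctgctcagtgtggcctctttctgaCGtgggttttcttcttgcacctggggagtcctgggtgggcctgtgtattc

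RIMKLB and PTPDC1 each have one start with an OA-only region and another with a region called in all 6 libraries, and the 250 bases before each (hg38, plus strand) show how the starts differ. For RIMKLB they are chr12:8681350-8681599 and chr12:8697431-8697680, and for PTPDC1 they are chr9:94084214-94084463 and chr9:94030544-94030793.
RIMKLB, OA-only start: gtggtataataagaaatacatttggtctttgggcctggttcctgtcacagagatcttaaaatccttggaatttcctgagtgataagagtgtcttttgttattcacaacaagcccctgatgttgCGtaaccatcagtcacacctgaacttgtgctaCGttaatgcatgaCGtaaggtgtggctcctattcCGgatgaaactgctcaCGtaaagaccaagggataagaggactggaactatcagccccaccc
RIMKLB, start called in all 6: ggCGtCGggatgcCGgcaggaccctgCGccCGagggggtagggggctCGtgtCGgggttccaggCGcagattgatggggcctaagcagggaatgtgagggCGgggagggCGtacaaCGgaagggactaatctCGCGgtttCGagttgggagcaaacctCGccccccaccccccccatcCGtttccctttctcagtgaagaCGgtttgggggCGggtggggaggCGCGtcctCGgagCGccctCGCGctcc
PTPDC1, OA-only start: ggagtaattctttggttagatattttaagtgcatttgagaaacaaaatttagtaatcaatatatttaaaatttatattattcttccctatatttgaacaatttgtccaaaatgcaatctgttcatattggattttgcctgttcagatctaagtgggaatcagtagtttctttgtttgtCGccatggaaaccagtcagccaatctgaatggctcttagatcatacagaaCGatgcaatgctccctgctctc
PTPDC1, start called in all 6: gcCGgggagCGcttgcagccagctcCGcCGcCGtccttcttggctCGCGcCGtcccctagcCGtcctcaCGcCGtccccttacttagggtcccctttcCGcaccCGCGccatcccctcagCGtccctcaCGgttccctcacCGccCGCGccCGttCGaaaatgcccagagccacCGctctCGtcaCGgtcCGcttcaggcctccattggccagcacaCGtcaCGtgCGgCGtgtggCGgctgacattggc

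The 250 bases before the OA-only starts held 5 CpGs at RIMKLB and 2 at PTPDC1, and those before the starts called in all 6 libraries held 24 and 30. Most of each window before an OA-only start lies outside the OA-only region. The windows before the starts called in all 6 lie inside their regions. The windows at TPPP and ZDHHC11B held 23 CpGs in 140 bases and 12 in 95, and the 250 bases before ZDHHC11 held 5.

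Peak strength is given below in 3 ways. The fold is the caller's enrichment of a peak over its local background (column 7 of the lists), the percentile is the rank of its −log10 p (column 8) among all peaks of the same library, and the reads are the pileup at the summit, solved from those values. None is scaled between libraries, and the percentiles were part of what ranked the genes. Ranked by the lowest of the 3 OA percentiles, the 9 regions took places 1, 2, 3, 5, 7, 8, 9, 11 and 13 of 345. The weakest of them, at STK32A, had a lowest percentile of 34.4174, and the next regions outside the list, at SRRM3 and PRPH, had 34.3811 and 34.3229, so the list ends at no gap.

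**Figure D2:**
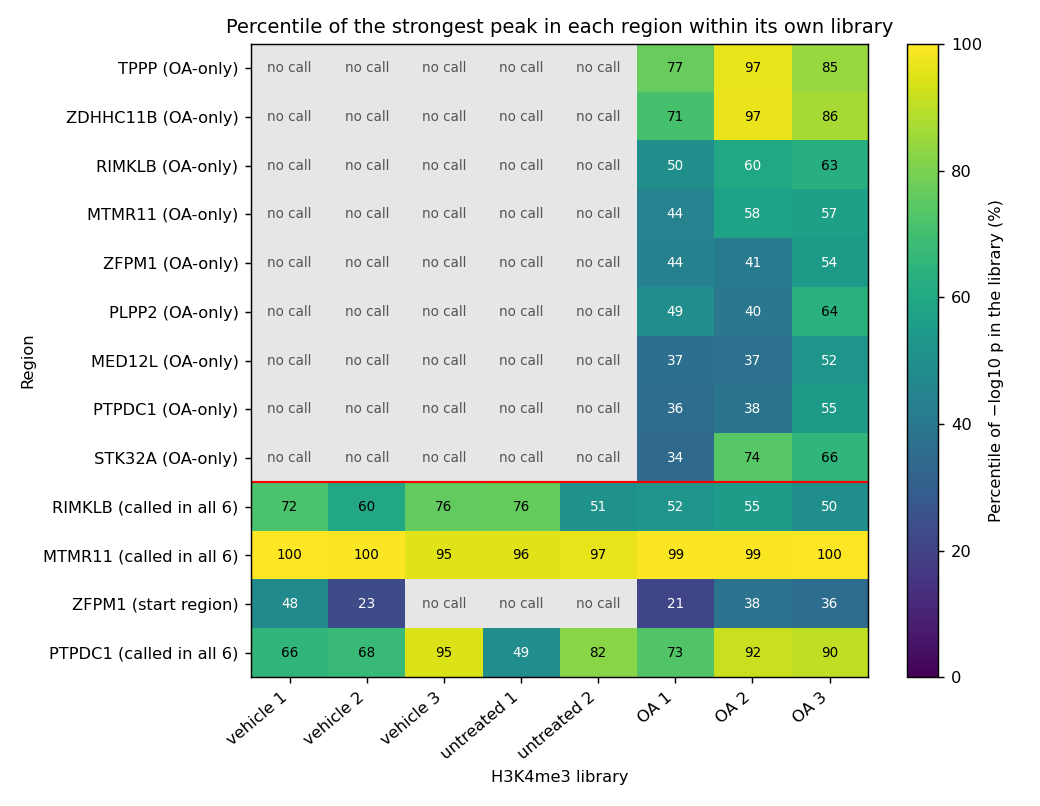
Percentile of the strongest H3K4me3 peak within its own library (colour and printed number, %) for the 9 OA-only regions above the red line and for 4 further regions near the same genes below it; columns are the 8 H3K4me3 libraries and grey cells had no peak. The 9 OA-only regions have no call in any vehicle or untreated library, whereas the RIMKLB, MTMR11 and PTPDC1 regions below the line were called in all 8.

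TPPP encodes tubulin polymerization-promoting protein, a microtubule-binding protein best known from oligodendrocytes. Its OA-only region, chr5:692562-694116, covers the only annotated start, with 764 bp upstream of the gene, 75 bp of exon and 716 bp of intron, and reaches the unnamed noncoding gene ENSG00000289088 on the other strand. The fold was 8.96, 18.4 and 11.8 in OA replicates 1, 2 and 3 (13.0 ± 4.83, SD, n = 3), at percentiles 76.7, 96.6 and 84.6. The summit held 37 reads (95% counting interval 26.1 to 51.0), 136 (114 to 161) and 103 (84.1 to 125). In OA replicate 2 the TPPP peak therefore stood above all but a few percent of that library's peaks, while OA replicate 1 was the lowest on these 3 scales. No vehicle library had a call, where the faintest called peaks anywhere had 6, 6 and 5 reads. A call needs more reads where the local background is higher. At the strongest TPPP summits it was 3.24, 6.46 and 7.85 reads in OA replicates 1, 2 and 3. The vehicle background there is not known, so these minima set no limit on the vehicle signal at TPPP.

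ZDHHC11B belongs to the DHHC family of palmitoyltransferases, which attach fatty acyl chains to proteins. Its region, chr5:783896-785448, covers 2 of its 3 annotated starts and reaches a noncoding gene on the other strand, ENSG00000288930. The fold was 8.27, 15.9 and 10.5 (11.6 ± 3.92, SD, n = 3), the percentile 71.1, 96.9 and 86.4, and the summit pileup 36, 151 and 116 reads in OA replicates 1, 2 and 3. The order of the libraries was the same as at TPPP.

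The TPPP and ZDHHC11B starts lie 91.4 kb apart on the same strand, and their regions are copies. Aligned over 1494 base pairs they were 96.3% identical, with 56 differences and 73 gap bases, and the alignment took in 100% of the TPPP region and 97.0% of the ZDHHC11B region. Of the overlapping 31-base words in the TPPP region, 44.6% occur elsewhere in hg38, all of them at the ZDHHC11B copy, and of those in the ZDHHC11B region 47.7% occur elsewhere, all of them at TPPP. In OA replicate 2 each copy had one peak inside the gene, with summits 603 and 656 bp downstream of the start, and another upstream, with summits at −244 and −245 bp. In OA replicate 3 the summits fell on the same aligned base (position 692765 in TPPP coordinates), while in OA replicate 1 the strongest summit was inside the gene at TPPP and at −353 bp from the start at ZDHHC11B. Around the strongest summits, 31.8%, 36.5% and 31.8% of the words in TPPP and 57.6%, 55.3% and 27.1% in ZDHHC11B were found elsewhere. How reads that fit both copies were placed is not given in the sources used here, and the values at the 2 genes are not independent of each other. Counted as 1 locus, the 9 regions are 8.

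The copies are an island between constitutive promoters. The start regions of CEP72, a centrosomal protein, at chr5:611675-613132 and of BRD9, a chromatin remodeller subunit, at chr5:891304-893763 were called in all 6 libraries, and the only H3K4me3 regions between them were those at TPPP and ZDHHC11B and the single-library peak in ZDHHC11. The start of ZDHHC11 lies 66.3 kb beyond that of ZDHHC11B. Windows of 1 kb on each side of the 2 starts shared 0% of their 31-base words.

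**Figure D3:**
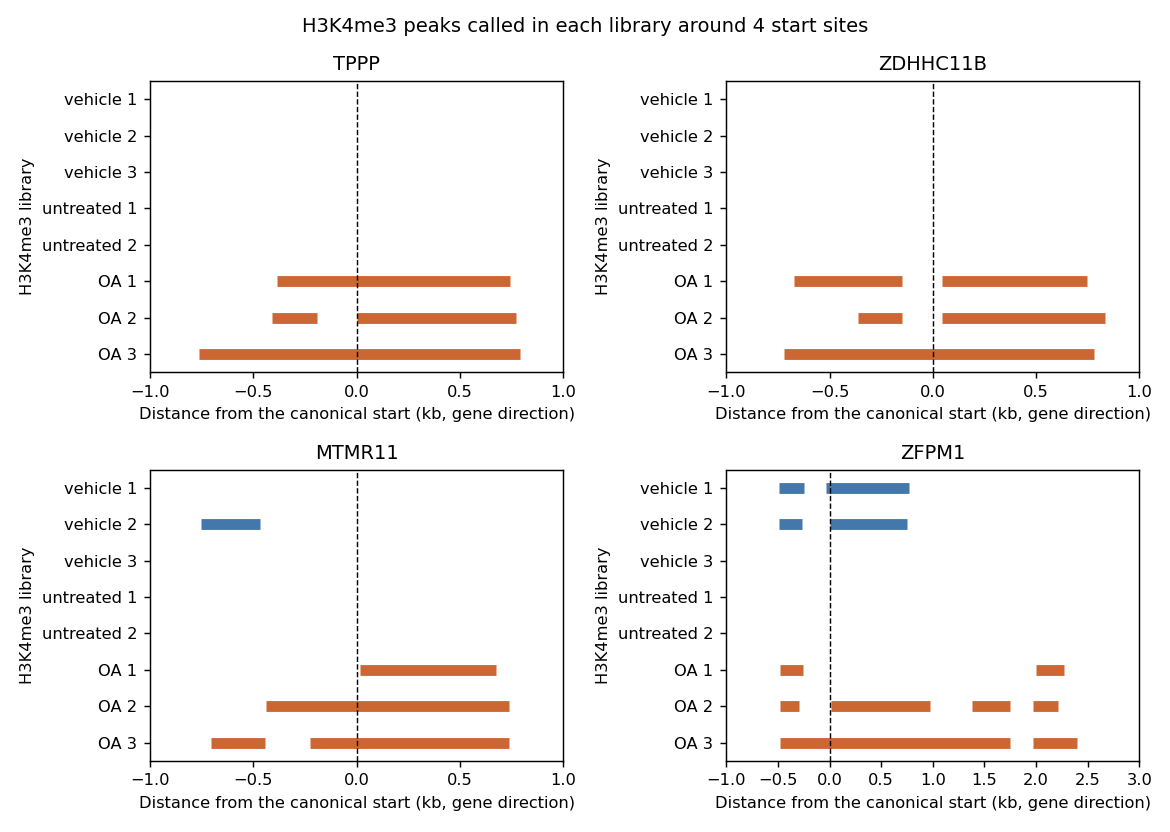
Intervals called as H3K4me3 peaks in each library (vertical axis: 3 vehicle, 2 untreated and 3 OA libraries) by distance from the canonical start in kb, in the direction of the gene, at TPPP, ZDHHC11B, MTMR11 and ZFPM1; bars are peaks and the dashed line is the start. TPPP and ZDHHC11B show calls in the OA libraries alone, while at MTMR11 and ZFPM1 vehicle libraries had calls beside the OA-only region.

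RIMKLB encodes a ligase that joins glutamate to citrate or to N-acetylaspartate. Its OA-only region, chr12:8681566-8682516, lies 15475 bp upstream of the canonical start, over the first exon of 2 alternative transcripts (RIMKLB-208 and RIMKLB-212). The fold was 8.79, 11.5 and 11.96 (10.8 ± 1.72, SD, n = 3), the percentile 49.7, 59.7 and 62.7 and the summit pileup 21, 66 and 65 reads. The canonical start carried a region, chr12:8697193-8698928, that was called in all 6 libraries and in both untreated ones, with folds of 9.70, 9.14 and 11.8 in the vehicle libraries. In the OA libraries its folds were 6.92, 8.90 and 7.38. In each OA library the alternative start had the larger fold of the pair and the lower summit pileup (30, 72 and 66 reads at the canonical start), so the order of the starts depended on the scale. Of the 31-base words of the OA-only region, 3.26% occur elsewhere.

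PTPDC1, a protein tyrosine phosphatase of the CDC14-like group, had the reverse arrangement. The OA-only region, chr9:94084445-94085637, covers the canonical start. The region called in all 6 libraries, chr9:94030106-94031622, covers an upstream start and ends 52842 bp before the canonical one. Over the canonical start the fold was 7.39, 9.20 and 11.7 (9.44 ± 2.18, SD, n = 3), the percentile 35.7, 38.3 and 54.6 and the pileup 17, 38 and 53 reads. The upstream start had folds of 8.33, 11.3 and 17.3 in vehicle and 8.34, 11.8 and 11.0 in OA, and the groups overlapped. OA replicate 1 gave only 234 bp of called peak at the canonical start, so that the region was not covered to 50% in that library.

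MTMR11 encodes a myotubularin-related protein without phosphatase activity. Its region, chr1:149936141-149937320, covers the canonical start and reaches into coding sequence (142 bp). The fold was 5.90, 10.3 and 8.30 (8.15 ± 2.19, SD, n = 3), the percentile 44.4, 58.2 and 56.5 and the pileup 30, 69 and 74 reads. A small region that begins 1 bp past it, chr1:149937321-149937631, was called in vehicle replicate 2 (fold 7.04) and OA replicate 3 (fold 2.79), so the OA-only call ended when peaks within 1000 bp were joined. At the far end of the gene, the start of the splicing factor gene SF3B4 had a region called in all 6 libraries, with percentiles from 95.2 to 99.8.

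ZFPM1 encodes FOG1, a zinc finger cofactor of GATA factors. Its OA-only region, chr16:88455250-88455676, is not at a start site: it lies wholly in an intron, 1970 bp downstream of the canonical start. The fold was 6.36, 7.98 and 7.81 (7.38 ± 0.894, SD, n = 3), the percentile 43.9, 41.2 and 54.3 and the pileup 27, 49 and 73 reads. The start itself, chr16:88452794-88455028, was called in vehicle replicates 1 and 2 (folds 7.76 and 6.65) and in all OA libraries (folds 4.64, 7.49 and 5.18), and not in vehicle replicate 3. The called length there was 1037, 966 and 0 bp in vehicle and 225, 1514 and 2227 bp in OA. The pattern at ZFPM1 was thus of calls further into the gene beside a start that was already marked, and joining peaks within 1000 bp ended the OA-only call.

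PLPP2, a lipid phosphate phosphatase that removes phosphate from lipids such as phosphatidic acid, had its region at chr19:289923-291402, which covers 4 of its 8 starts and ends 1 bp short of the canonical one. The fold was 6.87, 11.3 and 10.9 (9.68 ± 2.44, SD, n = 3), the percentile 48.9, 39.6 and 64.0 and the pileup 28, 33 and 72 reads. All 3 summits lay within the gene, 942, 976 and 926 bp downstream of the canonical start. No other H3K4me3 region was found within 5 kb of its starts.

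MED12L encodes a paralog of MED12, a subunit of the kinase module of Mediator, the complex that links transcription factors to RNA polymerase II. Its region, chr3:151085628-151086848, covers 6 of its 13 starts. The fold was 6.83, 10.1 and 10.4 (9.12 ± 1.99, SD, n = 3), the percentile 36.6, 37.5 and 52.5 and the pileup 20, 33 and 54 reads. OA replicate 3 had the highest percentile and the most reads, and OA replicate 1 the fewest reads.

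STK32A encodes a serine/threonine kinase. Its region, chr5:147234673-147235822, covers 6 of its 10 starts and overlaps the antisense gene STK32A-AS1, and the marks of the 2 genes cannot be told apart. The fold was 5.80, 10.1 and 8.18 (8.03 ± 2.16, SD, n = 3), the percentile 34.4, 74.0 and 65.7 and the pileup 23, 100 and 93 reads. OA replicate 1 was well below OA replicates 2 and 3 on all 3 scales. The 3 summits fell within 7 bp of one another, 163, 160 and 157 bp downstream of the canonical start.

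OA replicate 1 was the lowest of the 3 OA libraries in fold at all 9 regions and in pileup at all 9. Over the 9 regions the median percentile was 44.4, 58.2 and 62.7 in OA replicates 1, 2 and 3, against 17.5, 20.1 and 38.1 over all 345 OA-only regions and 67.6, 68.6 and 72.9 over the 11071 regions called in all 6 libraries. The called length was longest at ZDHHC11B (1246 ± 248 bp, SD, n = 3) and TPPP (1223 ± 295 bp) and shortest at ZFPM1 (313 ± 99.9 bp). By percentile the median region called in all 6 libraries thus ranked above the median of these 9 in each OA library. By fold this held in OA replicate 1 alone. The median fold of the 9 was 6.87, 10.3 and 10.5 in OA replicates 1, 2 and 3, against 7.18, 9.93 and 9.45 over the regions called in all 6. Of the 10104 regions at percentile 34.4 or more in every OA library, 13 (0.129%) had no vehicle call, 45 had 1, 470 had 2 and 9576 (94.8%) had 3.

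The untreated libraries were not used to choose the genes. Neither of them had a call at any of the 9 OA-only regions, and neither IgG library did (4.17% and 3.66% of all merged regions had an IgG peak). Over all 345 OA-only regions, 5 (1.45%) had a peak in untreated replicate 1 and 2 (0.58%) in untreated replicate 2, and over all merged regions the shares were 56.5% and 50.8%. Of the 4 regions near the 10 genes that were called in all 6 vehicle and OA libraries, 3 were called in both untreated libraries and 1 in untreated replicate 1 alone. The untreated libraries had fewer peaks than the vehicle and OA libraries of the same mark (12924 and 11242), with 7 reads at their faintest.

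**Figure D4:**
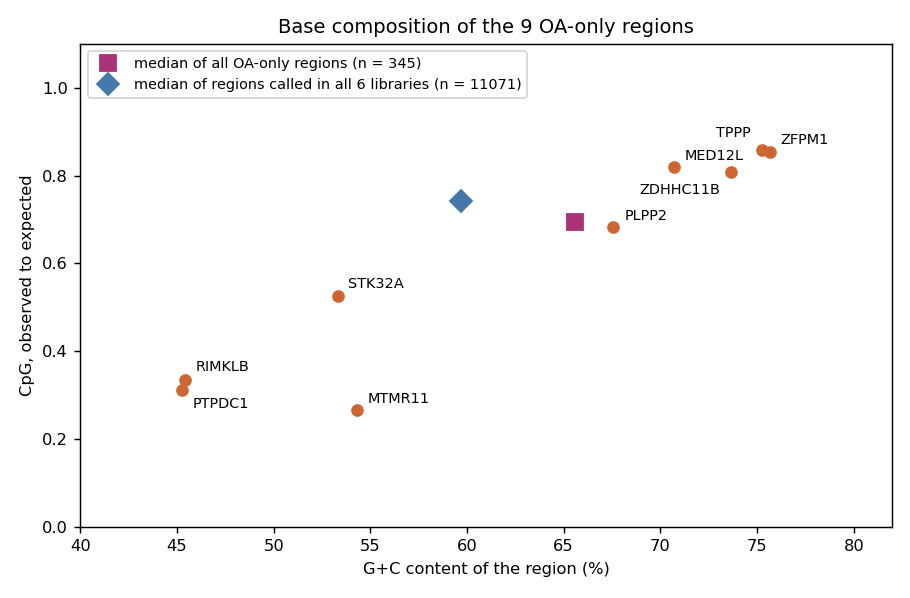
G+C content (horizontal axis, %) against the ratio of observed to expected CpGs (vertical axis) in the 9 OA-only regions (circles, named), with the medians of all 345 OA-only regions (square) and of the 11071 regions called in all 6 libraries (diamond). TPPP, ZDHHC11B, ZFPM1 and MED12L lie at the CpG-rich end (0.807 to 0.859), PLPP2 is the median of the 9 (0.683), and RIMKLB, PTPDC1 and MTMR11 at the CpG-poor end (0.266 to 0.334).

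In base composition, which the choice did not use, the 9 regions ranged from CpG-rich to CpG-poor. The ratio of observed to expected CpGs was 0.859 at TPPP, 0.807 at ZDHHC11B, 0.855 at ZFPM1, 0.820 at MED12L and 0.683 at PLPP2. It was 0.527 at STK32A, 0.334 at RIMKLB, 0.311 at PTPDC1 and 0.266 at MTMR11. The median over the 9 was 0.683, beside 0.695 over all OA-only regions and 0.742 over those called in all 6 libraries. Of the 10 genes, 4 also have a region called in all 6 libraries within 5 kb of a start, and 83 (28.9%) of the 287 genes with an OA-only region have one, beside 57.4% of all protein-coding genes.

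RefSeq's table held a promoter (250 bases before to 50 after the start) for 9 of the 10 genes and not for STK32A. Its median ratio of observed to expected CpGs was 0.940 over these 9, beside 0.767 over 15345 protein-coding genes. For RIMKLB and PTPDC1 the table gives the CpG-rich start. The promoters it gives for ZDHHC11, RIMKLB, ZFPM1 and PTPDC1 do not overlap an OA-only region. The promoter values therefore do not describe the OA-only regions alone. Exact words of 6 motifs were counted on both strands. CAGGTG, a letter string bound by E-box factors such as SNAI2 and ZEB1, was found at ZDHHC11 and RIMKLB (2 of 9 promoters, 19.8% of all), and CAGGTA, which differs from it in the last base, at ZDHHC11B and MTMR11 (2 of 9, 8.40% of all). CAGCTG (17.7% of all), TGACTCA (3.68%), TGATGCAA (0.678%) and TGACGTCA (2.64%) were found at none of the 9. A match is a string of letters and not a binding site.

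H3K27me3 came from other libraries than those that ranked the genes, and it was tested gene by gene. The measure was the length of called peak within 5 kb of a gene's starts, compared by a two-sided exact permutation test in which 3 libraries against 3 cannot go below p = 0.1. RIMKLB, MTMR11 and PTPDC1 had no H3K27me3 peak in any library, and the other 7 genes were tested. The number of the 10 genes with a call was 3, 6 and 3 in vehicle replicates 1, 2 and 3 (4 ± 1.73, SD, n = 3) and 7, 4 and 2 in OA replicates 1, 2 and 3 (4.33 ± 2.52). These counts moved with the libraries, in which 13%, 18.9% and 15.1% of protein-coding genes had a call in vehicle and 19.8%, 14.2% and 6.19% in OA. Peaks covered 9.42, 25.1 and 13.3 Mb in vehicle and 15.1, 11.8 and 3.50 Mb in OA.

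ZDHHC11 was the one gene whose groups did not overlap. It had 890, 721 and 740 bp of H3K27me3 peak in vehicle replicates 1, 2 and 3 and 246, 316 and 232 bp in OA replicates 1, 2 and 3. The mean fell by 519 bp, from 784 ± 92.6 to 265 ± 45.0 bp (SD, n = 3, exact permutation test p = 0.1, the smallest possible). The difference was larger than the spread and could not reach significance in this test. Of 6128 protein-coding genes with H3K27me3 in any library, 6.18% were lower in every OA than in every vehicle library and 0.441% were higher. The main region, chr5:849823-850924, lies 62 bp inside the gene from the canonical start, covers 2 other starts and had a call in each vehicle library and in OA replicates 1 and 2, and the length in OA replicate 3 came from a separate peak upstream. With the same number of strongest peaks taken from each library the difference was −64 bp, and at a q-value of 1e-05 no library kept a peak.

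**Figure D5:**
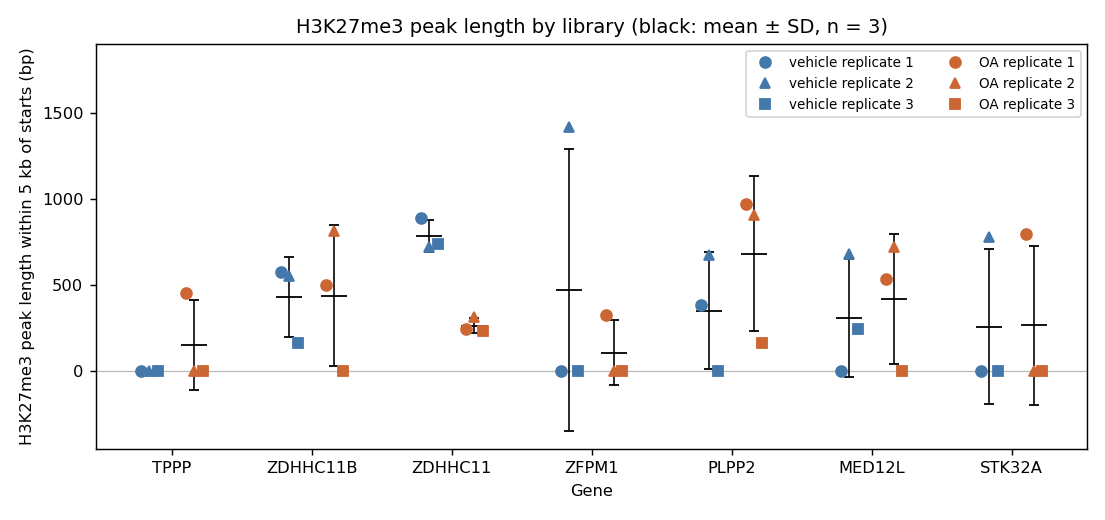
Length of H3K27me3 peaks within 5 kb of the start sites (vertical axis, bp) for the 7 genes with any, in each vehicle (blue) and OA (orange) library; marker shapes give the replicate and black bars the mean ± SD of 3 libraries. At ZDHHC11 the vehicle libraries (721 to 890 bp) lie above the OA libraries (232 to 316 bp), and at the other 6 genes the groups overlap.

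At the other 6 genes the H3K27me3 lengths overlapped between groups. PLPP2 had 385, 673 and 0 bp in vehicle and 972, 909 and 165 bp in OA (353 ± 338 against 682 ± 449 bp, SD, n = 3, exact permutation test p = 0.3), from peaks 1295 bp or more upstream of the start. MED12L had 0, 680 and 245 bp against 538, 724 and 0 bp (exact p = 0.8), all in a region 2517 bp upstream. STK32A had a peak in vehicle replicate 2 (778 bp) and OA replicate 1 (798 bp), in a region that reaches over its first start and into the OA-only H3K4me3 region. ZDHHC11B had 579, 553 and 163 bp against 502, 814 and 0 bp (exact p = 1), mostly in a region 2767 bp from an internal start and 30011 bp from the canonical one. TPPP had a single peak of 457 bp, in OA replicate 1, and ZFPM1 had 1420 bp in vehicle replicate 2 and 324 bp in OA replicate 1 (exact p = 1 for both). Over the OA-only H3K4me3 regions themselves, only the STK32A one overlapped an H3K27me3 peak in any library.

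Between TPPP and ZDHHC11, several H3K27me3 regions were called, none of them over the copied starts. Those at chr5:703215-703659, chr5:704289-705714, chr5:725008-726353 and chr5:754001-754718 were each called in all 3 vehicle and 2 OA libraries. The region at chr5:714935-716677 was called in all 3 vehicle and no OA library, chr5:825368-826942 in 3 vehicle and 1 OA library, and chr5:807569-808314 in all 6. Of the 10 H3K27me3 regions in this stretch, vehicle replicates 1, 2 and 3 had a call at 8, 10 and 10, and OA replicates 1, 2 and 3 at 6, 8 and 1. Over all 32643 merged H3K27me3 regions the vehicle libraries, in the same order, called 38.9%, 76.5% and 57.1%. The OA libraries called 50.2%, 49.0% and 18.9% of them. Inside TPPP, outside this stretch, the region chr5:673597-674677 was called in 0 vehicle and 2 OA libraries. OA replicate 3 also had the fewest H3K27me3 peaks of all (9091, against 18801 to 47648 in vehicle). With this library set aside, the ZDHHC11 length difference was −503 bp, against −519 bp.

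The neighbouring genes were examined to see whether new H3K4me3 calls spread beyond the 10 genes. Of 46 genes, up to 3 nearest protein-coding genes on each side of each, 20 had a region called in all 6 libraries, 3 had an OA-only region and 20 had no H3K4me3 region (ZC3H18 and DPYSL3 had both kinds). DPYSL3, a microtubule-associated protein of growing neurites, 275042 bp from STK32A, had an OA-only region over its canonical start, chr5:147509184-147510135, with folds of 5.64, 7.52 and 9.94 (rank 78). ZC3H18 and IL17C, an RNA-binding protein and a cytokine, share one OA-only region, chr16:88634548-88635157, with folds of 5.03, 4.90 and 7.36 (rank 269), which lies 4393 and 3415 bp from their nearest starts. None of these neighbour regions was within 5 kb of the 10 genes. At a q-value of 1e-05, with equal numbers of peaks or within 1 or 3 kb, 1 neighbour was left, against 3. Over all protein-coding genes the share with an OA-only region was 1.43%, as given above. A region called in all 6 libraries was found at 57.4% of them, and 5537 of 20033 had no H3K4me3 region.

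Other neighbours showed nothing or partial calls. MFAP5, CLEC4E and A2ML1 beside RIMKLB, SV2A beside MTMR11, ZNF469, CA5A and CYBA beside ZFPM1, GPR171 and P2RY14 beside MED12L, BARX1 beside PTPDC1 and JAKMIP2 beside STK32A had no region. NKD2 and PPP2R2B each had a region in 1 library, and PLEKHO1 and C2CD4C had regions in some libraries. SF3B4 shares a constitutive region with MTMR11, as described above.

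Relatives of these genes were counted in the same way. Of 68 genes of the same families, 46 had a region called in all 6 libraries (57.4% of all protein-coding genes did), 0 had an OA-only region (1.43% of all protein-coding genes did) and 12 had no region. With so low a share among all genes, a count of 0 among 68 is not a result about the families. Among 22 other DHHC palmitoyltransferases 17 were called in all 6 libraries and ZDHHC15 and ZDHHC19 had no region. All 6 partners in the Mediator kinase module (MED12, MED13, MED13L, CDK8, CDK19 and CCNC) and all 3 CDC14-like phosphatases (CDC14A, CDC14B and CDKN3) were called in all 6. Of 14 myotubularins 11 were, and of 11 phospholipid phosphatases and their relatives 4 were. Of the GATA factors, partners of ZFPM1, GATA2, GATA3 and GATA6 were called in all 6 and the other 3 had no region. TPPP3 had no region, and TPPP2 was called in 1 vehicle and 3 OA libraries. STK32C was called in all 6 and STK32B had no region, and RIMKLA was called in 1 OA library.

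Outside the list, 5 genes had OA-only regions most like these by the lowest OA percentile. They were SULT1A3 (44.6, region 4714 bp from the start), NIBAN1 (41.4), GIPR (36.1), SRRM3 (34.4) and PRPH (34.3), over 3 OA libraries. NIBAN1, a stress-responsive gene, had folds of 6.43, 8.53 and 9.59 in OA replicates 1, 2 and 3. PRPH, the neuronal intermediate filament peripherin, had folds of 6.65, 10.5 and 8.86. SULT1A3, a phenol sulfotransferase, had folds of 8.34, 11.4 and 14.1 and also had a region called in all 6 libraries, but it has a near-identical copy, SULT1A4, which leaves its values uncertain. Ranked by fold instead of −log10 p, TPPP stayed at place 1 of 345, RIMKLB at 3 and ZDHHC11B moved to 5, while MTMR11, ZFPM1 and STK32A moved to 47, 41 and 56.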

How the data were processed

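CUT&RUN libraries of 3 vehicle and 3 OA replicates for H3K4me3 and H3K27me3, with 2 untreated H3K4me3 and 2 IgG libraries, were grouped by the submitters' labels. The authors called peaks per library: narrow H3K4me3 peaks with MACS2 2.2.7.1, and broad H3K27me3 peaks for which the methods name SICER2, although the lists have MACS2's broad layout. The deposited fold enrichment is a ratio of peak to local background, and the deposited −log10 p-value and −log10 q-value depend on depth. The build is hg38 per the labels. The aligner, the handling of duplicates and of reads that fit several places, and the use of a control are not given in the sources used here.

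Peaks on autosomes, X and Y were merged per mark where they shared 1 bp. Pileups were solved from fold and −log10 p (recovered for 100% of peaks with −log10 p up to 250). Intervals cover counting error only. Regions within 5 kb of a GENCODE 44 start were assigned to genes. Genes named were the 10, neighbours (3 per side) that lacked a region called in all 6 libraries or shared a region, family genes with an OA-only region and the 5 others with the highest lowest OA percentile; other family genes, CEP72 and BRD9 were named after their values were seen. The genes and lists were chosen with earlier results of these data known. H3K27me3 lengths were compared by exact permutation tests, without adjustment. Words of 31 bases were searched on both strands of hg38 and the copies aligned with Biopython 1.88. Calculations were tested on simulated data. Scripts ran in Python 3.11.15 with scipy 1.17.1 for exact tests, numpy 2.4.6 for arrays and matplotlib 3.10.9 for plots. Some items near these genes are not reported here. Columns of the authors' own comparisons were not used. Alternatives are given in the closing section.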

Additional observations from a re-analysis of the deposited data

How the results depend on the processing

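The 10 genes held 7 to 9 genes with an OA-only region under every alternative, against 9. The count was 7 where peaks had to cover 50% of a region (without RIMKLB and PTPDC1) or were joined within 1000 bp (without MTMR11 and ZFPM1), and 8 within 1 kb (without ZFPM1), at canonical starts alone (without RIMKLB) or with the TPPP and ZDHHC11B copies counted as 1, an alternative chosen after seeing the data. Leaving out a replicate loosens the rule of all OA and no vehicle libraries, so counts can be expected to rise and the 9 genes are not tested by it. With each replicate left out, OA-only regions ranged from 361 to 1172 (against 345), vehicle-only regions from 28 to 287 (against 15), protein-coding genes with an OA-only region from 302 to 787 (against 287), neighbour genes from 3 to 4 (against 3) and family genes from 0 to 3 (against 0). Leaving out OA replicate 1 gave 1172 OA-only regions and 787 genes, leaving out vehicle replicate 1 gave 762 and 606 with 3 family genes, and leaving out OA replicate 2 gave 605 and 458. Vehicle-only regions numbered 9 at a q-value of 1e-05, 26 with equal numbers of peaks and 2 with the untreated libraries counted as vehicle. Neighbour genes numbered 1 at that q-value, 1 with equal numbers, 1 within 1 kb and 1 within 3 kb. Family genes numbered 1 where peaks had to cover 50% of a region. The cause of these shifts was not tested.

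Of 18 lowest percentiles recomputed by fold or among peaks near starts, 10 moved by less than the SD of the 3 OA libraries. Of 84 H3K27me3 length differences recomputed, 82 moved by less than 1 SD, 11 took the other sign and the 2 that moved were those at ZDHHC11 given above, which otherwise ranged from −584 to −466 bp. The difference between OA and vehicle in the number of the 10 genes with H3K27me3 (0.333) ranged from −1 to 1.5 with each replicate left out. Whether replicate numbers pair the libraries is not settled by their correlations. Deviations of same-numbered libraries correlated at 0.151, 0.236 and −0.198 for H3K4me3 and at 0.0917, 0.0315 and 0.0284 for H3K27me3. Those of libraries with different numbers correlated at −0.305 to 0.134 for H3K4me3 and at −0.0576 to 0.0263 for H3K27me3. All same-numbered H3K27me3 values were thus above the others, by little, while H3K4me3 was mixed. With the replicate block (exact sign-flip permutation test, smallest p 0.25) the mean difference at ZDHHC11 was −519 bp with p = 0.25, and the count difference was 0.333. A block cannot change a mean difference between groups of equal size. Neither exact test could pass 0.05 with or without it, so the block is no check on these results.

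Absence of a peak means that no summit reached the caller's threshold in a library of unknown total reads, so weak H3K4me3 in vehicle cannot be told from none. With 3 libraries a group, the exact tests used here cannot pass 0.05. Replicates came from separate cultures. The lists hold no expression values, so whether the new starts are transcribed was not analysed here.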

Other observations

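Single-library H3K4me3 peaks flanked several of the 10 genes. STK32A had one of 261 bp upstream of its OA-only region in OA replicate 3 (fold 2.97) and one of 183 bp downstream in OA replicate 2 (fold 3.51). PTPDC1 had small peaks in vehicle replicate 1 at 1282 bp upstream (fold 5.49) and 12350 bp downstream of its canonical start (fold 6.81), and one in OA replicate 1 at 13403 bp downstream (fold 5.94), over coding sequence. Upstream of MTMR11, a region 2103 bp from the start that overlaps OTUD7B, a deubiquitinase gene, was called in vehicle replicate 1 (fold 6.64), OA replicates 2 and 3 (folds 3.41 and 3.62) and untreated replicate 1 (fold 5.65).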
